A study of Mus musculus with 6 samples.

Results

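Integrins are receptors built of 1 alpha and 1 beta subunit that tie a cell to the matrix around it. The messenger RNAs of 10 subunits carried by resident kidney cells, Itga1, Itga2, Itga3, Itga5, Itga6, Itga8, Itgav, Itgb1, Itgb6 and Itgb8, were compared between 3 mouse kidneys with diabetic kidney disease (DKD) and 3 control kidneys. The subunits were chosen by name, as the 10 rows of the count table whose Ensembl ID carries 1 of these symbols, among 55401 IDs in all. All 10 had a row, and all 10 passed the filter on low counts, as did 19197 IDs of the table. RNA of the whole kidney was poly(A)-selected and sequenced. The DKD kidneys form the diseased group and the control kidneys the healthy one, with 3 libraries each. The labels give neither strain, sex and age nor the way diabetes was brought about, and do not say that each library is a separate animal, so p-values cover only the variation among these 6 libraries, part of which may be technical.

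Alpha and beta subunits reach the cell surface only as pairs. The beta1 subunit pairs with most of the alpha chains studied here. With alpha1 or alpha2 it binds collagen, with alpha3 or alpha6 laminin, and with alpha5, alpha8 or alpha v proteins that carry the sequence arginine-glycine-aspartate (RGD), such as fibronectin. In the glomerulus, alpha3 beta1 holds podocytes on their basement membrane, alpha8 beta1 is typical of mesangial cells, and alpha1 beta1 is carried by mesangial and endothelial cells. The alpha v chain also pairs with beta6, an epithelial subunit, and with beta8, and both of these pairs activate TGF-beta from its latent complex.

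Library totals ran from 64816622 to 77417638 counts, and markers of the nephron were abundant in each library. Slc34a1, the phosphate transporter of the proximal tubule, was at 3085 to 4632 CPM in DKD and 4762 to 5539 CPM in control kidneys, where CPM is the count scaled to the size of its library with TMM factors. The 8 proximal tubule markers all had a lower fitted level in DKD (median log2 difference -0.46), 5 of them were called lower without DKD replicate 1, where 5.84% of all genes were, and their sum was 9557, 7195 and 6929 CPM in DKD and 10881 to 11546 CPM in control kidneys. The part of this in the subunit results was not tested. The DKD kidneys did not form 1 tight group. DKD replicates 2 and 3 correlated with each other at 0.980 (log2 CPM over the genes tested) and with DKD replicate 1 at 0.946 and 0.940, while DKD replicate 1 correlated with the control libraries at 0.957 to 0.961. DKD replicate 1 also held 2321 CPM of the liver transcript Alb, against 7.20 to 14.7 CPM in the other 5 libraries, and its summed level of 12 hepatocyte genes was 4547 CPM, beside 165 and 176 CPM in the other DKD kidneys and 339 to 469 CPM in control kidneys. In the other 5 libraries Serpina1a alone made 88.2 to 258 CPM of this sum. Apoa1, from the same 12 genes, was at 0.0846 to 0.601 CPM there and at 189 CPM in DKD replicate 1. The part of hepatocyte transcripts in the results was not tested, and results are given with and without DKD replicate 1.

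Of the 10 subunits, 9 had a higher and 1 a lower fitted level in DKD. None passed an adjusted p of 0.05 with edgeR's quasi-likelihood test on the 6 libraries, where 0% of all genes did. At an unadjusted p under 0.05 there were 4 subunits, Itga2, Itga3, Itga5 and Itga6, each with the higher level in DKD, where 12.2% of all genes met that rule with a higher level. The median log2 difference of the 10 was 0.27, beside 0.02 over all genes tested, and 52.4% of all genes had a higher fitted level. Without DKD replicate 1, Itga2, Itga3 and Itga5 were higher past the adjusted threshold, where 9.67% of all genes were. DESeq2 on 6 libraries called the same 3 higher (7.08% of all genes), and limma-voom with sample quality weights called Itga3 and Itga5 higher (9.94%) and Itgb8 lower (7.75%). That weighted fit gave DKD replicate 1 a weight of 0.302 and control replicate 1 a weight of 0.502, against 1.18 to 2.07 for the other libraries. Limma-voom without weights called none of the subunits, and 0% of all genes. These fits reuse the same libraries and are not independent of each other.

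**Figure D1:**
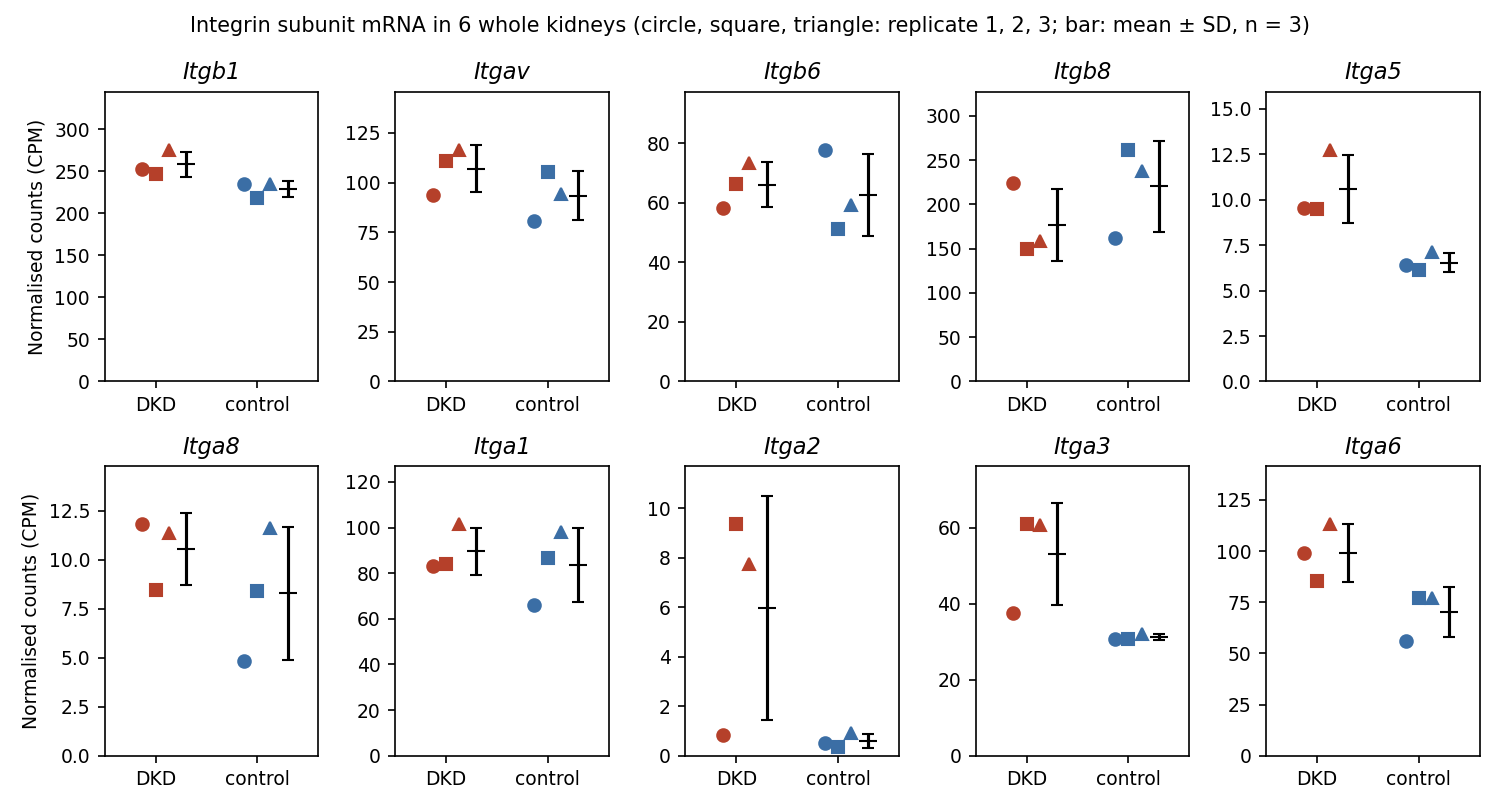
Each panel gives 1 subunit in CPM, with the 3 DKD kidneys left of the 3 control kidneys and the mean ± SD (n = 3) beside each group. Itga3, Itga5, Itga6 and Itgb1 were higher in DKD with no overlap between groups, as were 13.8% of all genes. Itga2 was high in DKD replicates 2 and 3 and at 0.827 CPM in DKD replicate 1.

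Itgb1 (ENSMUSG00000025809), the shared beta chain, was at 253, 247 and 276 CPM in DKD kidneys and at 235, 218 and 235 CPM in control kidneys. Each DKD kidney stood above every control kidney, but the gap was small. By edgeR it was 0.17 ± 0.10 on the log2 scale (SE; adjusted p = 0.364), and it came to 0.18 ± 0.10 when DKD replicate 1 was left out (adjusted p = 0.271 in edgeR; 0.149 to 0.716 over 17 alternatives). Of the 10 subunits, Itgb1 thus stood among 4 without overlap between groups, all higher in DKD, where 13.8% of all genes were higher without overlap.

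Among the collagen receptors, the levels of Itga1 overlapped between groups, while Itga2 was far higher in 2 of the 3 DKD kidneys. Itga1 (ENSMUSG00000042284), the alpha chain for basement membrane collagen, was at 83.3, 84.1 and 102 CPM in DKD and at 65.9, 86.6 and 98.0 CPM in control kidneys. EdgeR put it at 0.10 ± 0.16 on the log2 scale (SE; adjusted p = 0.756), and at -0.045 without control replicate 1, a turn of direction (adjusted p = 0.878 in edgeR; 0.493 to 0.997 over 17 alternatives). Itga2 (ENSMUSG00000015533), the alpha chain of the main receptor for fibrillar collagen on platelets and on several epithelia, had 63, 721 and 657 counts in DKD libraries 1 to 3, against 30, 24 and 66 counts in control libraries. In CPM this was 0.827, 9.36 and 7.74 in DKD and 0.505, 0.364 and 0.931 in control kidneys. DKD replicate 1 lay inside the control range, and the other DKD kidneys were 15.6-fold and 12.9-fold above the control mean. Itga2 differed by 3.31 ± 0.89 (log2, SE) in the edgeR fit (adjusted p = 0.145). By size it ranked 164 among the 19197 genes tested. Without DKD replicate 1 it was 3.81 ± 0.39 (adjusted p = 0.00261 in edgeR), and over 16 alternatives the adjusted p ran from 3.75e-04 to 0.382.

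Alpha2 is also carried by platelets. The summed level of 5 platelet markers was 0.779 to 1.91 CPM in DKD and 0.303 to 1.21 CPM in control kidneys, with none of the 5 at 0 in all libraries. Among them Pf4, platelet factor 4, was at 0.565, 0.467 and 1.59 CPM in DKD and at 0, 0.273 and 0.324 CPM in control kidneys, while Ppbp had a log2 difference of -0.75, neither of them called. The 10 injury markers summed to 417, 629 and 614 CPM in DKD and to 309 to 391 CPM in control kidneys. All 10 had a higher fitted level, where 52.4% of all genes did, and 7 were called higher without DKD replicate 1, where 9.67% of all genes were. Krt8, Cd24a and Krt7 made most of the injury sum in each library. The mean log2 CPM of the injury markers, minus the control mean, was 0.11 in DKD replicate 1. In control kidneys it was -0.32 to 0.38, so DKD replicate 1 lay inside the control range on that scale. The 7 urothelial markers summed to 17.9, 82.3 and 63.5 CPM in DKD and to 1.38 to 11.8 CPM in control kidneys, with 3 called higher without DKD replicate 1. Alpha2 is also found on T and NK cells. The 6 markers of T and NK cells summed to 4.58, 12.0 and 14.6 CPM in DKD and to 3.16 to 3.52 CPM in control kidneys, with all 6 called higher without DKD replicate 1. The 5 B cell markers summed to 1.84, 62.2 and 61.0 CPM in DKD and to 7.29 to 17.1 CPM in control kidneys, with 2 called higher without that library. Most of the sum in DKD replicates 2 and 3 was Jchain. Jchain alone was at 0.841, 53.8 and 56.1 CPM in DKD and at 5.74, 13.9 and 7.34 CPM in control kidneys. The injury, urothelial, T and NK cell and B cell sums were each highest in the same pair of DKD kidneys as Itga2. The part of these cells in the Itga2 result was not tested. Here and below, more cells of a type and more RNA per cell cannot be told apart in whole kidney RNA.

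Within each library the count ratio of Itga2 to Itga1, which needs no scaling between libraries, was 0.00994, 0.111 and 0.0763 in DKD kidneys and 0.00766, 0.00420 and 0.00950 in control kidneys. DKD replicate 1 was above the highest control by a slim margin only. These ratios, and those below, were formed after the values had been seen and are given with no test.

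For both laminin receptor alpha chains among the 10 subunits, the lowest DKD kidney stood above the highest control kidney. Of all genes, 13.8% were higher without overlap. Itga3 (ENSMUSG00000001507), which joins beta1 to form the podocyte's laminin receptor and is also carried by tubular epithelium, was at 37.5, 60.9 and 60.7 CPM in DKD kidneys and at 30.7, 30.6 and 32.0 CPM in control kidneys. Control values lay within a narrow band, DKD replicate 1 was 1.20-fold above their mean, and the other DKD kidneys were 1.96-fold and 1.95-fold above it. Itga3 differed by 0.77 ± 0.19 (log2, SE) in the edgeR fit (adjusted p = 0.126). When DKD replicate 1 was left out, the difference was 0.96 ± 0.09 (adjusted p = 0.00173 in edgeR). Over 17 alternatives the adjusted p of Itga3 ran from 0.00173 to 0.362, and it had the smallest p of the 10 subunits on 6 libraries.

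Itga6 (ENSMUSG00000027111), which forms laminin receptors with beta1 or beta4, was at 98.9, 85.2 and 113 CPM in DKD kidneys and at 56.1, 77.0 and 77.2 CPM in control kidneys. Here DKD replicate 1 stood between the other DKD kidneys. Itga6 differed by 0.50 ± 0.16 (log2, SE; adjusted p = 0.178 in edgeR), and by 0.49 ± 0.18 without DKD replicate 1 (adjusted p = 0.113 in edgeR; 0.0644 to 0.457 over 17 alternatives). The count ratio of Itga3 to its partner Itgb1 was 0.148, 0.246 and 0.220 in DKD libraries and 0.131, 0.140 and 0.136 in control libraries, so that each DKD library was above each control library. The ratio of Itga3 to Itga6 was 0.379, 0.715 and 0.537 in DKD and 0.548, 0.397 and 0.415 in control libraries, where the groups overlapped.

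Podocyte markers stood beside these subunits. The groups did not overlap for any of the 7 listed podocyte genes, all higher in DKD, where 13.8% of all genes were higher without overlap. Their sum was 278, 282 and 363 CPM in DKD and 174 to 216 CPM in control kidneys, with 4 called higher without DKD replicate 1, where 9.67% of all genes were. Itga3 is also carried by tubular epithelium. The 10 injury markers summed to 417, 629 and 614 CPM in DKD and to 309 to 391 CPM in control kidneys, highest in DKD replicates 2 and 3, as was Itga3. Most of that sum was Krt8, Cd24a and Krt7, and by mean log2 level DKD replicate 1 lay inside the control range, as given above. The part of the podocyte and injury markers in the Itga3 and Itga6 results was not tested.

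The receptors for RGD proteins gave a mixed picture. Itga5 (ENSMUSG00000000555), the alpha chain of the classical fibronectin receptor, was at 9.53, 9.50 and 12.7 CPM in DKD kidneys and at 6.40, 6.12 and 7.12 CPM in control kidneys. All DKD kidneys, replicate 1 included, were above all controls, by 1.45-fold to 1.95-fold over the control mean. Itga5 differed by 0.69 ± 0.18 (log2, SE) in the edgeR fit (adjusted p = 0.133). Without DKD replicate 1 it was 0.76 ± 0.19 (adjusted p = 0.0373 in edgeR), and over 17 alternatives the adjusted p ran from 0.0114 to 0.376.

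Itga8 (ENSMUSG00000026768), the mesangial alpha chain that binds nephronectin, was at 11.8, 8.44 and 11.3 CPM in DKD kidneys and at 4.83, 8.38 and 11.6 CPM in control kidneys. The control kidneys alone spanned most of the range. Itga8 differed by 0.35 ± 0.32 (log2, SE; adjusted p = 0.574 in edgeR), by 0.07 without control replicate 1 and by 0.67 without control replicate 3, and over 17 alternatives its adjusted p ran from 0.379 to 0.895. The mesangial and stromal markers, a list of 9 genes without Itga8, summed to 168, 192 and 240 CPM in DKD and to 117 to 145 CPM in control kidneys. The ratio of Itga8 to Itgb1 counts was 0.0466, 0.0341 and 0.0411 in DKD libraries and 0.0206, 0.0384 and 0.0494 in control libraries. Itgav (ENSMUSG00000027087), the alpha chain shared by beta1, beta6 and beta8, was at 93.9, 111 and 116 CPM in DKD and at 80.7, 105 and 94.5 CPM in control kidneys. It differed by 0.20 ± 0.13 (log2, SE; adjusted p = 0.448 in edgeR), by 0.10 without control replicate 1 and by 0.13 without DKD replicate 3, and over 17 alternatives its adjusted p ran from 0.196 to 0.781.

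The partners of alpha v that activate latent TGF-beta were not called on 6 libraries, where 0% of all genes were. Itgb6 (ENSMUSG00000026971) was at 58.3, 66.5 and 73.4 CPM in DKD kidneys and at 77.8, 51.0 and 59.1 CPM in control kidneys. All DKD values lay inside the control range, and Itgb6 differed by 0.08 ± 0.17 (log2, SE; adjusted p = 0.828 in edgeR). It changed sign without control replicate 2, at -0.053 (adjusted p = 0.899 in edgeR), and again when DKD replicate 3 was left out, at -0.0057 (adjusted p = 0.995 in edgeR). Over the 17 alternatives for Itgb6 the adjusted p ran from 0.210 to 0.995. Itgb8 (ENSMUSG00000025321) was at 224, 149 and 158 CPM in DKD kidneys and at 163, 262 and 237 CPM in control kidneys. It was the only subunit of the 10 with a lower fitted level in DKD, by -0.32 ± 0.22 (log2, SE; adjusted p = 0.462 in edgeR). DKD replicates 2 and 3 stood just under the lowest control, and DKD replicate 1 was inside the control range. Without DKD replicate 1 the difference was -0.53 ± 0.19 (adjusted p = 0.115 in edgeR), and limma-voom with sample quality weights gave -0.58 ± 0.15 (adjusted p = 0.0411 in that limma fit). Without control replicate 2 the difference of Itgb8 was -0.18. Over the 17 alternatives for Itgb8 the adjusted p ran from 0.0411 to 0.782.

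The beta6 and beta8 chains varied in opposite senses also within the control group. The count ratio of Itgb6 to Itgb8 was 0.261, 0.445 and 0.464 in DKD libraries and 0.478, 0.195 and 0.249 in control libraries. Control replicate 1 had the highest ratio of all 6, so the groups overlapped, and the spread between control kidneys was larger than the distance between group means. Control replicate 1 also had the lowest level of Itga1, Itga6, Itga8 and Itgav among the 6 libraries.

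**Figure D2:**
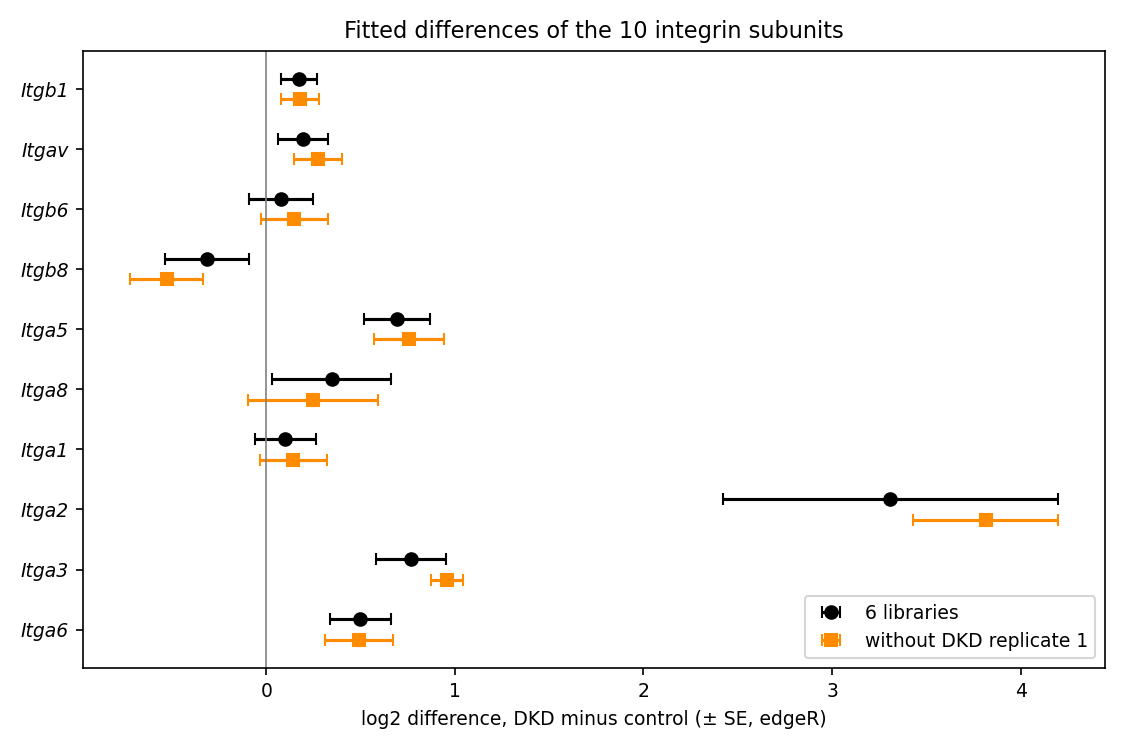
Points are log2 differences (DKD minus control) from edgeR with an SE derived from its F statistic, on 6 libraries and without DKD replicate 1. Itga2 stood at 3.31 on 6 libraries, the other alpha chains between 0.10 and 0.77, and Itgb8 at -0.32.

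Counted by library, DKD replicate 1 was above the control range for 5 subunits and inside it for 5, namely Itga1, Itga2, Itgav, Itgb6 and Itgb8. DKD replicate 2 was above the range for 6, below it for 1 and inside it for 3. DKD replicate 3 was above it for 7, below it for 1 and inside it for 2. The summed CPM of Itga1, Itga2, Itga3, Itga5, Itga6 and Itga8, the 6 alpha chains other than Itgav, was 242, 257 and 307 in DKD kidneys and 164, 209 and 227 in control kidneys. The sum of Itgb6 and Itgb8 was 282, 216 and 232 CPM in DKD kidneys and 240, 313 and 296 CPM in control kidneys.

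Levels of different subunits were compared per kilobase (kb) of exon, using the merged exons of each gene in GENCODE M21, an annotation of another build than the counts. Itgb1 stood far above the rest, at 63.4 ± 3.65 CPM per kb in DKD and 56.2 ± 2.36 CPM per kb in control kidneys (SD, n = 3 each). Itgb8 came next, at 16.0 ± 3.67 CPM per kb in DKD and 19.9 ± 4.67 CPM per kb in control kidneys. In DKD kidneys Itga6 (11.0), Itgav (9.96), Itga3 (9.29) and Itgb6 (9.29) followed with overlapping ranges, in mean CPM per kb. In control kidneys the order of means was Itgb6 (8.81), Itgav (8.70), Itga6 (7.77) and Itga3 (5.45), in CPM per kb, where the first 3 overlapped and Itga3 was below each of them. Itga1 came after these, at 4.82 CPM per kb in DKD and 4.49 in control kidneys. Itga5 was at 2.15 CPM per kb in DKD and 1.33 in control kidneys, and Itga8 at 1.43 in DKD and 1.12 in control kidneys. The ranges of Itga5 and Itga8 overlapped in control but not in DKD kidneys. Itga2 had the lowest mean in both groups, with a DKD range that overlapped that of Itga8, at 0.838 ± 0.635 CPM per kb in DKD and 0.0841 ± 0.0414 CPM per kb in control kidneys (SD, n = 3 each).

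**Figure D3:**
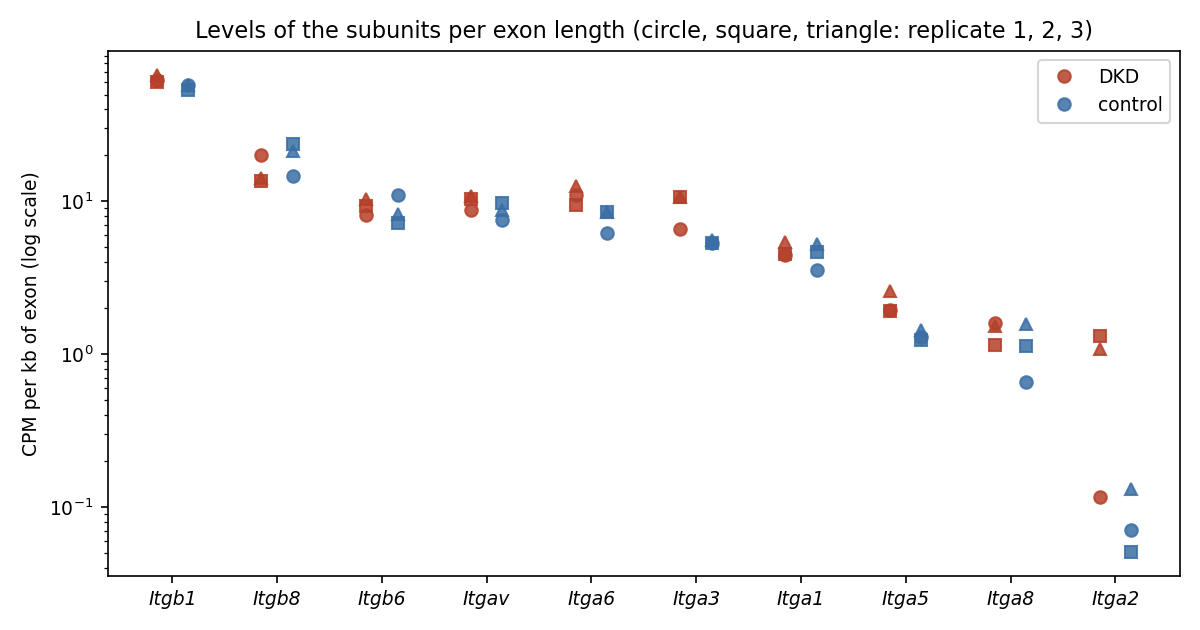
The levels of the 10 subunits in CPM per kb of exon are on a log scale, ordered by the control mean, with DKD kidneys left of control kidneys. Itgb1 was the most abundant in every kidney, and Itga2 the least abundant in every control kidney.

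The subunits lie on several chromosomes, with Itga1 and Itga2 on mouse chromosome 13 and Itga6, Itga8, Itgav and Itgb6 on chromosome 2. In GENCODE M21 the exons of Itga1 share 685 bases with the readthrough gene Gm49395, which had 101, 108 and 147 counts in DKD and 72, 51 and 76 counts in control libraries, small beside the 3915 to 8615 counts of Itga1. Exons of Itga8 share 372 bases with the antisense gene E030013I19Rik, which had at most 19 counts in a library. The strand setting of the counting is not given in the sources used here. Exons of Itgav share 634 bases with Gm13684 on the other strand, at most 12 counts in a library. For the other 7 subunits no exon overlap with another gene was found.

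The start regions of Itga2, Itga3 and Itga5 are printed because these 3 subunits were called together without DKD replicate 1. They are the RefSeq windows (GRCm38.p6) of 300 bases, 250 before and 50 after the annotated start, read 5′ to 3′ on the gene's strand. Capitals mark matches to CAGAC, the core of the SMAD binding element, on either strand. The windows are chr13:114932051-114932350 for Itga2, chr11:95076665-95076964 for Itga3 and chr15:103366742-103367041 for Itga5, all on the minus strand.
Itga2: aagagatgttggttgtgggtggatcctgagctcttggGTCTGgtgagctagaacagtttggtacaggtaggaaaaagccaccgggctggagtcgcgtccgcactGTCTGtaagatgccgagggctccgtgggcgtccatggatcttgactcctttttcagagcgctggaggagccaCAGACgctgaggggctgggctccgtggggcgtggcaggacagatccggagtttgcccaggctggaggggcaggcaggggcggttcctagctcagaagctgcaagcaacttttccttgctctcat
Itga3: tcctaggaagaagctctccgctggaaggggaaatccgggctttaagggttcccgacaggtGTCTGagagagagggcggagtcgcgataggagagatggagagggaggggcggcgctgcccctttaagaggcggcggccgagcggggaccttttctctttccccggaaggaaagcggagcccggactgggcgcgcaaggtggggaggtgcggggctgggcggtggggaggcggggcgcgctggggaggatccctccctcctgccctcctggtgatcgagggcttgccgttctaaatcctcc
Itga5: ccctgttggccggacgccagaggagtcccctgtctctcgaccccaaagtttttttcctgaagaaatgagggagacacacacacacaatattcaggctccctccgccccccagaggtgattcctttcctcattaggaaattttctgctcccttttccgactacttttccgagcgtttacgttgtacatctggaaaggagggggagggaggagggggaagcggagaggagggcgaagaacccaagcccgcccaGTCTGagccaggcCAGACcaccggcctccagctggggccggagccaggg
Of the 10 subunits 9 had a window in that table, and Itga3 and Itgb6 had 2 each, which gave 11 windows. CAGAC, searched on both strands, was found 3 times for Itga2, 1 time for the Itga3 window shown and 2 times for Itga5. It was in 7 of the 11 windows and in 49.6% of the 32851 RefSeq windows of that length. The AP-1 motif TGANTCA, which shares no match with CAGAC in these windows, was in 1 of 11 windows, the second of Itga3, and in 7.8% of all. The TEAD motif GGAATG was in 1 of 11, that of Itgb1, and in 14.7% of all. The GC box GGGCGG was in 6 of 11 and in 35.7% of all, and TATAAA was in 0 of 11 and in 13.6% of all. Such short letter matches describe the sequence only.

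Ligands and partners of the subunits were read from the same fit as 6 lists of 94 genes, of which 93 were tested. None passed the adjusted threshold on 6 libraries, at an unadjusted p under 0.05 there were 43 higher and 4 lower, and 41 were called higher and 0 lower without DKD replicate 1. Of all genes, 12.2% were higher and 7.05% lower at that unadjusted p, and 9.67% were called higher and 5.84% lower without DKD replicate 1. The counts of each list below stand beside these shares, and beside 52.4% of all genes with a higher fitted level. Among the 13 collagen genes 12 had a higher fitted level (median log2 difference 0.91), and 7 were called higher without DKD replicate 1. Col3a1, a fibrillar collagen chain that alpha1 and alpha2 integrins can bind, was at 55.4 ± 17.5 CPM in DKD and 15.5 ± 4.74 CPM in control kidneys (SD, n = 3 each). Its log2 difference was 1.83 ± 0.31 (SE). Those of Col1a2, Col1a1 and Col4a5 were 1.43, 1.87 and 0.96. Unlike Itga2, the collagen list was high in DKD replicate 1, where its mean log2 level exceeded that of the controls by 1.17, with 0.75 and 1.17 for DKD replicates 2 and 3.

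Of 10 laminin chains 8 had a higher fitted level (median 0.48), and 4 were called higher without DKD replicate 1. Lamb3, a chain of the epithelial laminin bound by alpha3 and alpha6 integrins, averaged 8.29 ± 5.77 CPM in DKD and 2.06 ± 0.198 CPM in control kidneys (SD, n = 3 each). EdgeR put Lamb3 at 2.01 ± 0.50 on the log2 scale (SE; adjusted p = 0.133). Lama3, the alpha chain of that laminin, was among the 2 laminin chains with a lower fitted level. It was at 28.3, 28.2 and 25.8 CPM in DKD and at 31.4, 36.6 and 31.3 CPM in control kidneys (log2 difference -0.27). Lamc1, the gamma chain of most basement membrane laminins, differed by 0.71 and Lama5 by 0.60. Among the 14 genes of RGD proteins and related ligands 13 had a higher fitted level (median 1.00), and 9 were called higher without DKD replicate 1. Npnt, nephronectin and the ligand of alpha8, averaged 142 ± 19.2 CPM in DKD and 94.0 ± 8.55 CPM in control kidneys (SD, n = 3 each; log2 difference 0.60 ± 0.13, SE). On 6 libraries neither Npnt nor Itga8 was called, where 0% of all genes were. Without DKD replicate 1, Npnt but not Itga8 was called (adjusted p = 0.0223 in edgeR), where 9.67% of all genes were called higher. Fn1, the ligand of alpha5, was at 69.3, 32.2 and 54.7 CPM in DKD and at 9.32, 13.4 and 13.2 CPM in control kidneys. It was highest in DKD replicate 1, and its log2 difference was 2.12 with that library and 1.85 without it. Those of Postn and Thbs1 were 2.25 and 1.09. Vtn, vitronectin, a plasma protein made by the liver, was at 65.3, 0.273 and 0.353 CPM in DKD and at 0.353, 0.0606 and 0.423 CPM in control kidneys. It was high only in DKD replicate 1, the library with hepatocyte transcripts, so that its log2 difference of 6.29 became 0.16 without that library. Vtn was picked out after its values were seen, and it raises the mean log2 level of the RGD list in DKD replicate 1.

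All 9 genes of the list named latent TGF-beta had a higher fitted level (median 0.67), and 4 were called higher without DKD replicate 1. The list was not limited to targets of alpha v beta6 and alpha v beta8. Tgfb1 averaged 12.4 ± 2.50 CPM in DKD and 7.18 ± 0.778 CPM in control kidneys (SD, n = 3 each; log2 difference 0.79 ± 0.19, SE). The latent binding proteins Ltbp3, Ltbp4 and Ltbp1 differed by 1.15, 0.67 and 0.52. On 6 libraries neither these genes nor Itgb6 and Itgb8 were called, where 0% of all genes were. In DKD replicate 1 the summed level of the list was 109 CPM, beside 143 and 169 CPM in the other DKD kidneys and 69.2 to 96.2 CPM in control kidneys, while Ltbp2 was at 0 in that kidney, which lowers the mean log2 level of the list there.

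The adaptors that join integrins to actin and to signalling had the smallest median of the 6 lists. Of 32 genes 23 had a higher and 9 a lower fitted level (median 0.10), and 9 were called higher without DKD replicate 1. The list held 6 genes higher without overlap and 7 lower without overlap, where 13.8% and 11.5% of all genes were. Actn1, alpha-actinin, was at 31.2 ± 5.32 CPM in DKD and 19.2 ± 2.25 CPM in control kidneys (SD, n = 3 each). Apbb1ip, which links Rap1 to talin and is found in blood cells, differed by 1.44. Tln2, a talin that binds beta tails, was at 178 ± 13.6 CPM in DKD and 227 ± 12.1 CPM in control kidneys. It differed by -0.35 ± 0.10 (log2, SE; adjusted p = 0.156 in edgeR). Ptk2b, a kinase of the focal adhesion kinase family, differed by -0.31. The kinase scaffold gene Ilk was at 45.2, 43.8 and 43.9 CPM in DKD and 44.0, 42.0 and 46.7 CPM in control kidneys, and was picked out after its values were seen.

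Of the 16 other integrin subunits 15 were tested, 14 had a higher fitted level (median 0.74), and 8 were called higher without DKD replicate 1. With all 6 libraries only 1 of the 15 was higher without overlap between groups, where 13.8% of all genes were. Itgb4, the partner of alpha6 in hemidesmosomes, was at 5.35, 14.9 and 13.2 CPM in DKD and at 4.06, 3.53 and 3.85 CPM in control kidneys. It differed by 1.55 ± 0.37 (log2, SE; adjusted p = 0.120 in edgeR), with DKD replicate 1 nearest the controls, as for Itga3 and Itga2. Itgal and Itga4, alpha chains of leukocytes, differed by 1.10 and 1.32, and Itgb3 by 1.08. DKD replicate 1 lay inside the control range for all of these. It was at 2.92 CPM of Itgal (controls 1.85 to 3.47) and 2.88 CPM of Itga4 (controls 1.70 to 3.94). For Itgb3 it was at 1.21 CPM (controls 0.656 to 1.26). Macrophage markers, 9 genes, summed to 141, 257 and 320 CPM in DKD and to 136 to 159 CPM in control kidneys. All 9 had a higher fitted level (median 1.13), as did the 6 T and NK cell markers (median 1.83) and the 5 B cell markers (median 1.61), whose sums are given above for Itga2. The part of leukocytes in these values was not tested.

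**Figure D4:**
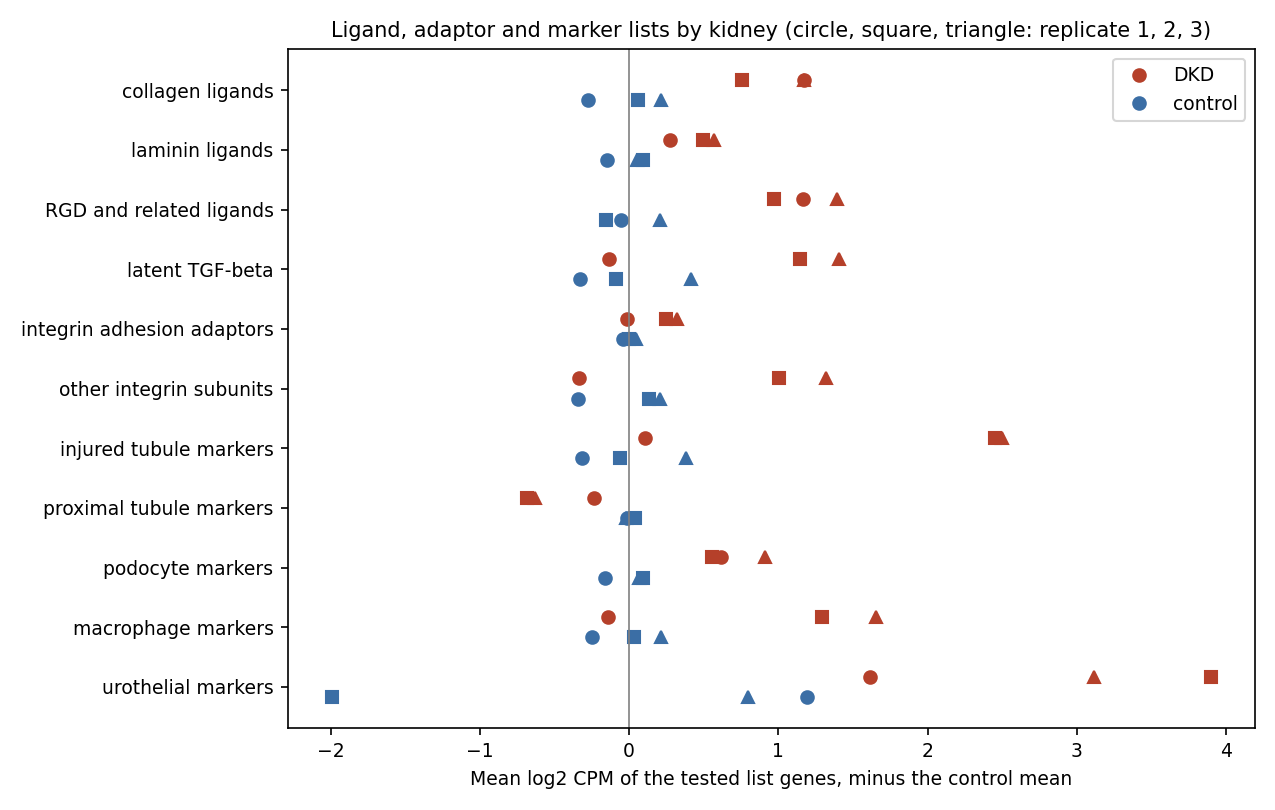
For each list the mean log2 CPM of its tested genes in a kidney is given, minus the mean of the control kidneys, with DKD kidneys above control kidneys. The DKD kidneys stood above the controls for collagen, laminin and RGD ligands and podocyte markers. DKD replicate 1 lay within the control range for the injured tubule, macrophage, adaptor, other integrin and latent TGF-beta lists on this scale, the last with Ltbp2 at 0.

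Over the 6 libraries, the genes with the pattern most like Itga3 were Aldh1a3, Tiam1 and Slc35g1 (Pearson's r of log2 CPM 0.999, 0.998 and 0.998). Aldh1a3, a retinaldehyde dehydrogenase, averaged 44.8 CPM in DKD and 0.592 CPM in control kidneys. For Itgb1 they were Rbms3, 2700081O15Rik and Tll1 (r of 0.998, 0.993 and 0.988). These values describe 6 points that share the group difference and, for Itga3, also the odd place of DKD replicate 1. Of 14658 genes compared, 488 had an r over 0.95 with Itga3 and 52 with Itgb1.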

How the data were processed

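The table deposited by the authors holds raw read counts per gene, not normalised, with 1 column for each of the 6 libraries. The submitters' processing notes name the tools HISAT2, StringTie, edgeR and fastp and the GRCm39 build, with no version or role. The gene annotation is not given in the sources used. Symbols came from a GRCm38 reference table and were found for 55141 of 55401 IDs.

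Counts were analysed in R 4.3.3 with edgeR 4.0.16 (quasi-likelihood F-test, two-sided, robust fit, TMM factors, default filter on low counts by group), DKD against control, with Benjamini-Hochberg adjustment over 19197 genes and a threshold of 0.05. Members and lists were read from that fit. The SE printed with an edgeR log2 difference is its absolute value divided by the square root of its F statistic. Alternatives used limma 3.58.1, DESeq2 1.42.0, other scalings and filters, a fit that was not robust, a replicate block, and each library left out. The tests were tried on simulated counts first. A count of 0 allows up to 3 counts, 0.0353 to 0.0505 CPM here, which covers counting error only. Log2 CPM used a prior count of 2. Sequences are from RefSeq windows (GRCm38.p6), matched by symbol.

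The subunits and lists were chosen with earlier results of these data known. All 10 subunits were named, with up to 4 genes of smallest p per ligand, adaptor, latent TGF-beta and integrin list, and for Itgb1 and the subunit of smallest p the 3 genes of highest correlation (mean CPM of at least 1). One gene that this rule names is not reported here. A gene named beyond this was picked with its values known.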

Additional observations from a re-analysis of the deposited data

How the results depend on the processing

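With edgeR on 6 libraries, 0 of 10 subunits, 0 of 93 tested genes in the 6 lists and 0 of 19197 genes passed the threshold (2340 higher and 1354 lower genes at an unadjusted p under 0.05). DESeq2 called 1195 genes higher and 554 lower, 3 subunits higher and 31 list genes. Limma-voom with sample quality weights called 1909 higher and 1488 lower, 2 subunits higher and 1 lower, and 37 list genes. Limma-voom without weights called 0 genes. With no filter on low counts there were 3 higher and 1 lower. Leaving out each library in turn gave 0 to 1933 higher genes, 0 to 1168 lower genes, 0 to 3 subunits higher, 0 lower, and 0 to 41 list genes. The highest counts were without DKD replicate 1, and without control replicate 1 there were 6 higher and 1 lower. The cause of these differences was not tested. Of 169 subunit values under the alternatives 157 kept direction and side of the threshold, 9 were newly past it, and 3 turned, Itga1 without control replicate 1 and Itgb6 without control replicate 2 and without DKD replicate 3. Leaving out each library gave Itga1 a log2 difference of -0.045 to 0.23 and Itgb6 one of -0.053 to 0.26. List medians kept their sign in all 102 cases. Library size alone moved the median of all genes to 0.17, from 0.02, and that of Itgb1 to 0.33. Itga2 could not be tested with a filter of CPM 1 in 3 libraries.

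With the replicate block 0 subunits and 0 genes were called. Libraries of the same number correlated at 0.023 to 0.034 in their deviations from the group means, under 0.1, so the number was not taken to pair them, although each library correlated best with its own number, a hint from the data and not the design. Itga2 had 24 to 66 counts per control library, so counting error adds to the uncertainty of its fold. The DKD kidneys themselves ran from 0.827 to 9.36 CPM of Itga2.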
